A study of Mus musculus with 6 samples.

Results

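The genes described here are 10 genes of the canonical Wnt pathway, chosen by name: the feedback inhibitors Axin2, Rnf43, Znrf3 and Nkd1, the target transcription factor Sp5, the TCF/LEF transcription factors Lef1, Tcf7, Tcf7l1 and Tcf7l2, and Ctnnb1, which encodes β-catenin. All 10 were found among the 27179 gene identifiers counted, and all 10 passed the filter on low counts that left 14199 genes. The cells were mouse embryonic stem cells of the ES-E14TG2a background, and their poly(A) RNA was sequenced in 3 libraries, named A, B and C, for each of 2 groups. Values of single libraries are given in the order A, B, C. Cells of the WT group made FLAG-tagged Trim71, and cells of the R783H group made FLAG-tagged Trim71 carrying the R783H amino-acid change, which is linked to hydrocephalus. Both groups grew on gelatin with 2% serum, 1000 U/mL leukemia inhibitory factor, 3 µM of the GSK3 inhibitor CHIR99021 and 1 µM of the MEK inhibitor PD0325901. Whether the letters stand for clones, cultures or preparations is not given in the labels, so each p-value measures the spread between these libraries, which may be technical.

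When no Wnt ligand is bound, a destruction complex built on Axin proteins and APC lets GSK3 phosphorylate β-catenin and send it for degradation. Inhibition of GSK3 stabilises β-catenin, which enters the nucleus, binds TCF/LEF proteins and turns on target genes, several of which restrain the pathway in return. In mouse embryonic stem cells Tcf7l1 acts mainly as a repressor of pluripotency genes, and GSK3 inhibition is known to relieve that repression. CHIR99021 was present in both groups, so the comparison is between R783H and WT cells that both carried this stimulus, and no culture without it is part of the comparison.

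Of the 10 genes, 4 rose in R783H (Axin2, Rnf43, Znrf3 and Lef1), 1 fell (Tcf7) and 5 did not pass the test (Nkd1, Sp5, Tcf7l1, Tcf7l2 and Ctnnb1). The test was edgeR's quasi-likelihood test, adjusted by Benjamini and Hochberg's method across the whole table, and a gene was called where the adjusted p was under 0.05. Across all tested genes 64.5% were called, 33.5% higher and 30.9% lower, so 5 calls among 10 genes is no larger a share than in the table as a whole. Levels of the groups did not overlap for 7 of the 10 genes, against 68.1% of all tested genes. The median log2 fold change (R783H over WT) was 0.06 over the 10 genes and 0.03 over all tested genes. The list as a whole therefore did not stand out by its counts, and the results lie in how its members differed from each other.

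Total counts were 27807385 to 29079670 per library in R783H and 20894277 to 25174121 in WT. A level of 3 counts, taken as the floor of detection, corresponded to 0.0998 to 0.149 CPM (counts scaled by TMM-adjusted library size). Trim71 mRNA was 152, 129 and 150.5 CPM in the R783H libraries and 131, 131 and 159 CPM in the WT libraries, which says nothing about the amino-acid change itself. Markers of embryonic stem cells were abundant in every library: 8 genes including Pou5f1, Nanog and Esrrb summed to 5145 to 5245 CPM in R783H and 5592 to 5646 CPM in WT, with 1 called higher (Fgf4) and 3 lower (Pou5f1, Nanog and Zfp42). Of 8 fibroblast genes, Col3a1, Postn, Lum and Dcn stayed under 1 CPM in all libraries, and the list summed to 10.8 to 11.9 CPM. Of the 4 tested, 1 was called higher and 1 lower. Pdgfrb, most of the sum, was higher, at a mean of 9.39 CPM in R783H and 7.59 CPM in WT. Thy1 was lower, with 2, 7 and 8 counts in R783H and 25, 34 and 28 in WT. In bulk RNA, fewer cells of a type and less RNA per cell cannot be told apart. Library R783H B stood apart from R783H A and C: a chi-square statistic of paired counts per degree of freedom was 8.76 and 9.59 against them, where A and C gave 1.94 and the WT pairs 1.78 to 3.63.

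Sp5 encodes a zinc-finger transcription factor and is a direct target of β-catenin with TCF/LEF proteins. RefSeq promoter windows (300 bases, from 250 before to 50 after a transcript start, GRCm38.p6) were available for 9 of the genes. Among these, Sp5 was the single one with more than 1 match to a TCF/LEF core. Its window is shown beside that of Axin2, which held no match and lies inside the Axin2 gene. The 4 cores searched, on both strands, were CTTTG followed by AT, by AA, by TT or by TA. The 250 bases before the start are printed 5′ to 3′ on the strand of the gene, with matches in capitals.
Sp5, chr2:70474673-70474922, plus strand: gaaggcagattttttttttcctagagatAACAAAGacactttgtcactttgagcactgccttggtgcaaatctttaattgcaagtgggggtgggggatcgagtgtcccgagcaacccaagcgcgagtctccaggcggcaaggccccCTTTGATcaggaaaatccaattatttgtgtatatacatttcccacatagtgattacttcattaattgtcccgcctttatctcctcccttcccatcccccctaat
Axin2, chr11:108920099-108920348, plus strand: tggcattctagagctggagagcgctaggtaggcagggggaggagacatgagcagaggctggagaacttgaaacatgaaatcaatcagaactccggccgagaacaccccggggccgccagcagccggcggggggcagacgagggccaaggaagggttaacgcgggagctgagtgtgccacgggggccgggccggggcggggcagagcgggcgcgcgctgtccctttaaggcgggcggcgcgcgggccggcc

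In Sp5 a CTTTGTT on the opposite strand lay 222 bases before the start and a CTTTGAT on the gene's strand 104 bases before it. Of the 16 windows of the 9 genes, 3 held a match, those of Sp5, of 1 of 4 Lef1 starts and of 1 of 2 Tcf7l2 starts, against 16.9% of all 32851 windows. With the shorter core CTTTG alone, 8 of the 16 windows matched, against 53.9% of all. The windows of Axin2, Rnf43, Nkd1, Tcf7, Tcf7l1 and Ctnnb1 held none of the 4 cores. A match is a run of letters and not a bound site, and these windows leave out distal elements. The single windows of Axin2 and Nkd1 begin at 108920099 and 88527383, inside genes that begin at 108917828 and 88521342. On the minus strand, the 2 windows of Tcf7 begin at 52283264 and 52282845, inside a gene that begins at 52283383. For Axin2, Nkd1 and Tcf7 the bases before the outermost annotated start were therefore not searched.

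The feedback inhibitors act at successive points of the pathway. Axin2 (Entrez 12006, chr11:108917828-108950783, GRCm38) is a scaffold of the destruction complex and the most widely used readout of β-catenin activity. Its level was 94.5, 88.9 and 91.9 CPM in the R783H libraries and 72.8, 70.5 and 71.4 CPM in the WT libraries. Every R783H library lay above every WT library, and the spread within each group was small beside the gap. The rise was 1.28-fold, a log2 fold change of 0.36 (SE 0.05), with adjusted p = 4.28e-05 (edgeR's quasi-likelihood test). In size it was unremarkable here, as 52.5% of all tested genes had a smaller absolute log2 fold change. An antisense gene, Gm11670, shares 209 nt of its exons, and whether the counting used strand is not given in the sources used here.

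Rnf43 (Entrez 207742, chr11:87663087-87735539) and Znrf3 (Entrez 407821, chr11:5276329-5444847) encode paralogous membrane E3 ubiquitin ligases that remove Frizzled receptors from the cell surface. Rnf43 had 132, 133 and 129 counts in the R783H libraries against 24, 39 and 26 in the WT libraries. These counts correspond to 4.39, 4.69 and 4.36 CPM in R783H and 1.19, 1.59 and 1.22 CPM in WT. The groups were far apart, and the lowest R783H library was well above the highest WT library. The rise was 3.32-fold, a log2 fold change of 1.73 (SE 0.15; adjusted p = 2.72e-06 by edgeR's quasi-likelihood test), larger in absolute size than that of 98.2% of tested genes.

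Znrf3 stood at 27.9, 22.3 and 29.4 CPM in the R783H libraries and at 16.7, 19.4 and 19.3 CPM in the WT libraries. The groups did not overlap, but R783H B came close to the WT libraries. The rise was 1.43-fold, with a log2 fold change of 0.52 (SE 0.10) and adjusted p = 0.00102 (edgeR's quasi-likelihood test). Without R783H B the log2 fold change was 0.61, and with an offset for transcript length and GC content it was 0.36, called in both cases. The direction was thus shared by both ligases, while their levels differed: per kb of longest transcript, Znrf3 averaged 2.93 CPM per kb in WT against 0.309 for Rnf43, and 4.21 against 1.04 in R783H.

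Nkd1 (Entrez 93960, chr8:88521342-88594887), which encodes a Dishevelled-binding inhibitor, did not pass the test. It measured 3.49, 3.84 and 3.58 CPM in the R783H libraries and 3.91, 3.59 and 3.19 CPM in the WT libraries. The ranges overlapped throughout. Its log2 fold change of 0.03 had a 95% interval from -0.25 to 0.31 (adjusted p = 0.848, edgeR's quasi-likelihood test). A rise the size of that in Rnf43 lies far outside this interval. The log2 fold change of 0.36 in Axin2 also lies outside it, just above its upper end.

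**Figure D1:**
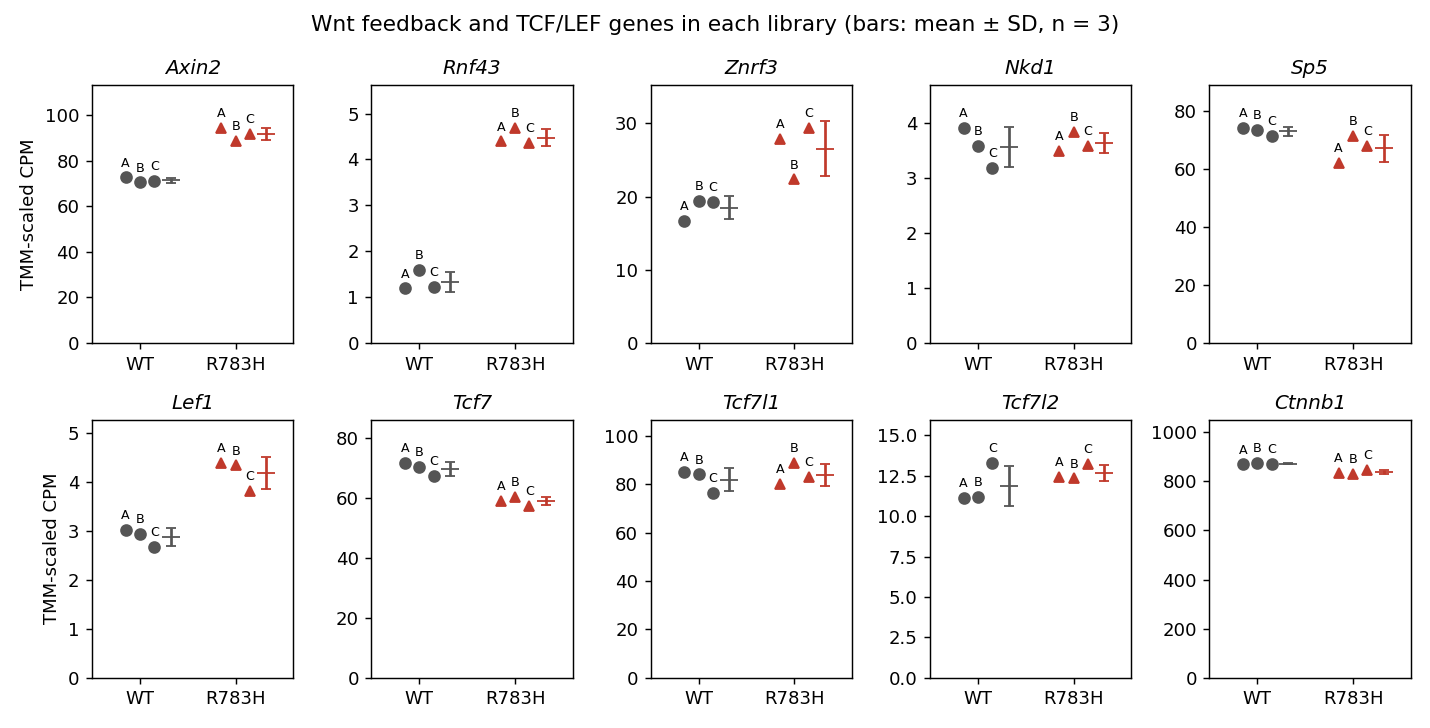
TMM-scaled CPM of the 10 genes in each library (circles WT, triangles R783H, letters A to C), each on an axis from 0, with the mean ± SD of 3 libraries at the right of each group. Axin2, Rnf43, Znrf3 and Lef1 lie higher and Tcf7 lower in every R783H library, and Ctnnb1 and Sp5 lie slightly lower without passing the test.

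Unlike the 3 inhibitors that rose, Sp5 (Entrez 64406, chr2:70474923-70477726) did not pass the test. It measured 62.0, 71.3 and 67.9 CPM in the R783H libraries and 74.1, 73.4 and 71.3 CPM in the WT libraries. R783H B nearly met WT C, and the groups were separated by a very small margin. The log2 fold change was -0.12 (SE 0.06; 95% interval -0.25 to 0.00356), with adjusted p = 0.0816 (edgeR's quasi-likelihood test). This value depended on the setting: without R783H B it was -0.19 and called lower (adjusted p = 0.00232, edgeR's quasi-likelihood test). Under the length and GC offset its value was 0.13 and it was called higher (adjusted p = 0.0164, edgeR's quasi-likelihood test), so no direction is given for Sp5.

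Ctnnb1 (Entrez 12387, chr9:120933400-120960507) had the most counts of the 10 genes. Its level was 835, 831 and 848 CPM in the R783H libraries and 869, 876 and 872 CPM in the WT libraries. All 3 R783H libraries were lower, by a few percent. The log2 fold change was -0.06 (SE 0.04; 95% interval -0.14 to 0.02), with adjusted p = 0.187 (edgeR's quasi-likelihood test). Without R783H B it was -0.08 and called lower (adjusted p = 0.0337, edgeR's quasi-likelihood test), and with library size as the only scaling it was 0.02 and not called. Ulk4, a gene on the opposite strand that shares 759 nt with Ctnnb1, averaged 4.54 CPM in R783H. These are mRNA levels, and the β-catenin protein, which the destruction complex controls, was not measured in these libraries.

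The TCF/LEF factors bind the same DNA core and recruit β-catenin; Tcf7 and Lef1 mostly activate, and Tcf7l1 mostly represses. Lef1 (Entrez 16842, chr3:131110297-131224357) rose, from low counts. It had 132, 123 and 113 counts in the R783H libraries against 61, 72 and 57 in the WT libraries, or 4.39, 4.33 and 3.81 CPM against 3.02, 2.94 and 2.67 CPM. The groups did not overlap, and the lowest R783H library exceeded the highest WT library. The rise was 1.45-fold, a log2 fold change of 0.54 (SE 0.13; adjusted p = 0.00346, edgeR's quasi-likelihood test). An antisense gene, Gm43352, shares 1208 nt of Lef1 exons, so its reads cannot be told apart from those of Lef1 unless strand was used.

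Tcf7 (Entrez 21414, chr11:52246527-52283383) fell. It stood at 59.0, 60.2 and 57.4 CPM in the R783H libraries and at 71.7, 70.3 and 67.2 CPM in the WT libraries. Each R783H library was below each WT library. WT was 1.18-fold above R783H, a log2 fold change of -0.24 (SE 0.05; adjusted p = 0.00104, edgeR's quasi-likelihood test). Scaling by library size alone gave the smallest change, -0.16, which was still called.

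Tcf7l1 (Entrez 21415, chr6:72626371-72789045) measured 80.0, 88.9 and 82.9 CPM in the R783H libraries and 85.1, 84.0 and 76.5 CPM in the WT libraries. The groups overlapped, with R783H B the highest and WT C the lowest. Its log2 fold change was 0.04 (95% interval -0.09 to 0.16; adjusted p = 0.611, edgeR's quasi-likelihood test). Under the length and GC offset its value was 0.17 and it was called higher (adjusted p = 0.0018, edgeR's quasi-likelihood test), and without R783H B it was -0.03. An antisense gene, Gm15401, shares 179 nt of its exons.

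Tcf7l2 (Entrez 21416, chr19:55741797-55933659) measured 12.4, 12.3 and 13.2 CPM in the R783H libraries and 11.1, 11.2 and 13.3 CPM in the WT libraries. WT C was above all R783H libraries, so the groups overlapped. Its log2 fold change was 0.09 (95% interval -0.10 to 0.29; adjusted p = 0.374, edgeR's quasi-likelihood test).

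**Figure D2:**
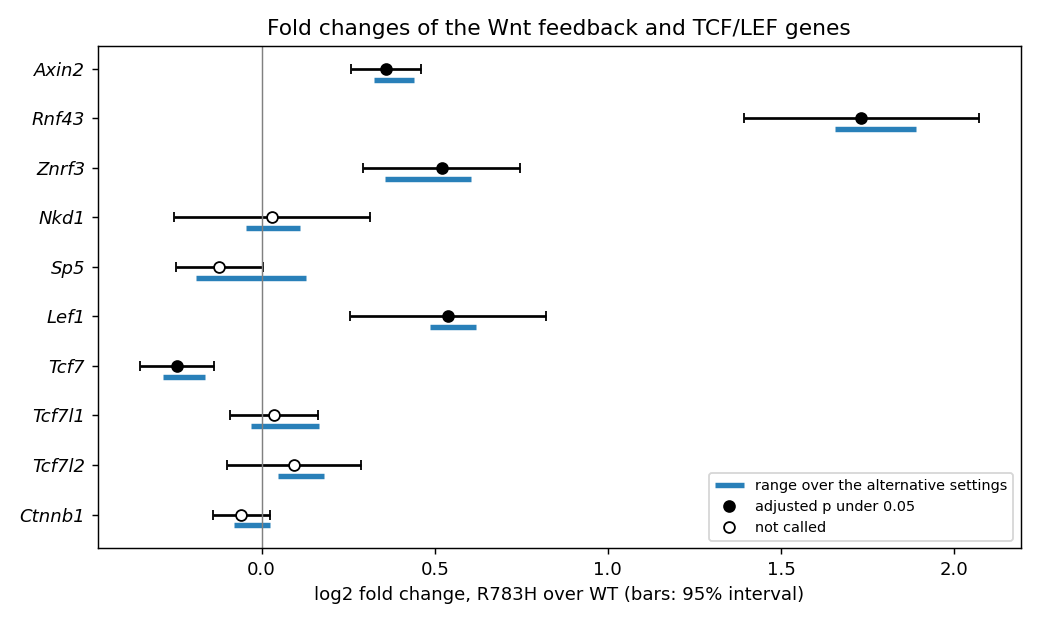
Log2 fold change (R783H over WT) of each gene with its 95% interval (black), filled where the adjusted p was under 0.05, and the range over the 16 alternative settings (blue). Rnf43 lies at 1.73, Axin2, Znrf3 and Lef1 between 0.36 and 0.54, and Tcf7 at -0.24; the range of settings crosses 0 for Nkd1, Sp5, Tcf7l1 and Ctnnb1.

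Because Lef1 and Tcf7 moved in opposite directions, the makeup of the family was described as each gene's percent of the summed counts per kb of the 4 genes. Using the longest transcript, Tcf7 took 47.7, 47.5 and 48.0% in the WT libraries and 43.6, 42.0 and 42.1% in the R783H libraries. Tcf7l1 took 46.0, 46.1 and 44.4% in WT and 48.1, 50.3 and 49.5% in R783H. The ranges of neither gene overlapped between groups, with Tcf7 lower and Tcf7l1 higher in R783H. Lef1 took 1.29 to 1.36% in WT and 1.89 to 2.20% in R783H, and Tcf7l2 4.93 to 6.33% and 5.71 to 6.47%. Shares sum to 100, so a lower share of Tcf7 raises the others, and Tcf7l1 itself did not pass the test.

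Which of Tcf7 and Tcf7l1 leads depended on the length used. With coding lengths (909 nt for Tcf7 and 1797 nt for Tcf7l1) Tcf7 took 58.5 ± 0.168% in WT and 53.1 ± 0.870% in R783H (SD, n = 3), above Tcf7l1 at 34.7 ± 0.802% and 38.3 ± 1.07%. With transcript lengths (2471 and 3042 nt) Tcf7l1 led in R783H, at 49.3 ± 1.13% against 42.6 ± 0.920% for Tcf7. The difference between groups was similar with both lengths, -5.17 and -5.35 percentage points for Tcf7 and 3.78 and 3.59 for Tcf7l1. The summed level of the 4 genes was 54.7 to 58.1 CPM per kb in R783H and 56.6 to 60.8 in WT, so the totals overlapped.

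**Figure D3:**
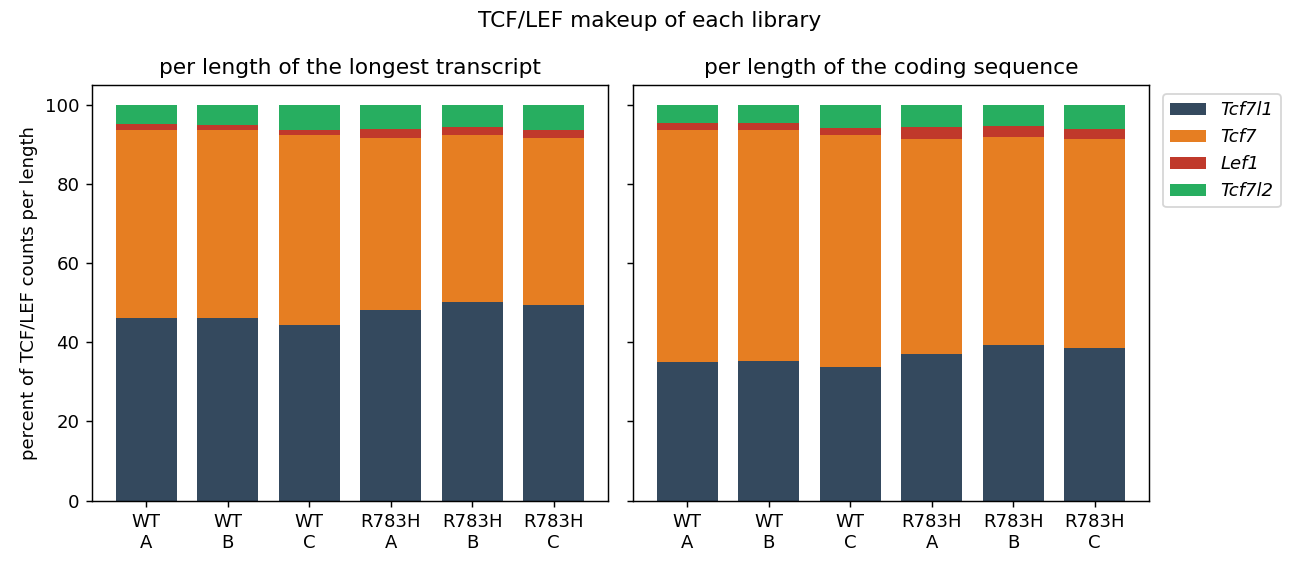
Share of each TCF/LEF gene in the summed counts per length of the 4 genes, by library, using the longest transcript (left) or the coding sequence (right). Tcf7 (orange) is lower in every R783H library under both lengths, at 42.0 to 43.6% against 47.5 to 48.0% with transcript length.

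Per kb of longest transcript, the order of levels in WT ran from Ctnnb1 at a mean of 241 CPM per kb through Sp5 (34.7), Tcf7 (28.2), Tcf7l1 (26.9), Axin2 (16.8), Tcf7l2 (3.20), Znrf3 (2.93), Nkd1 (0.873) and Lef1 (0.787) to Rnf43 (0.309). Library ranges of Tcf7 and Tcf7l1, of Tcf7l2 and Znrf3, and of Nkd1 and Lef1 overlapped, so by this length those neighbours did not differ beyond their spread. By coding length Tcf7 and Tcf7l1 were apart in WT, with TCF/LEF shares of 58.5 and 34.7%. In R783H the order was Ctnnb1 (231), Sp5 (31.9), Tcf7l1 (27.6), Tcf7 (23.8), Axin2 (21.5), Znrf3 (4.21), Tcf7l2 (3.41), Lef1 (1.14), Rnf43 (1.04) and Nkd1 (0.891). Znrf3 overlapped Tcf7l2 and Lef1 overlapped Rnf43 there, while Nkd1 was the lowest. By transcript length Rnf43 was thus last in WT by a clear gap and level with Lef1 in R783H. The order in both groups depended on the length used. In WT, mean levels of 69.7 CPM for Tcf7 (909 nt coding) and 72.9 CPM for Sp5 (1194 nt coding) place Tcf7 above Sp5 per coding length. Coding lengths are 2352 nt for Rnf43, 1191 nt for Lef1 and 1413 nt for Nkd1. Per coding length, mean levels of 4.48, 4.18 and 3.64 CPM place Rnf43 below both Lef1 and Nkd1 in R783H.

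Library R783H B was the highest of its group for Rnf43, Nkd1, Sp5, Tcf7 and Tcf7l1 and the lowest for Axin2, Znrf3, Tcf7l2 and Ctnnb1. Without it, 3 of the 10 genes were called lower in place of 1, the added ones being Sp5 and Ctnnb1, and 4 were still called higher.

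Fold changes across the table followed transcript length, with a median log2 fold change of -0.17 in the shortest 10% of genes and 0.31 in the longest. The deciles that hold Axin2, Rnf43 and Nkd1 (median 0.07), Lef1, Tcf7l2 and Ctnnb1 (-0.00766) and Tcf7 (-0.05) had medians near 0, while that of Znrf3 had 0.19 and that of Sp5 -0.09. With the length and GC offset Axin2 (0.35), Rnf43 (1.73), Znrf3 (0.36), Lef1 (0.53) and Tcf7 (-0.17) were called in the same direction.

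The profile nearest to that of Rnf43, the called gene with the largest change, was sought among all tested genes as the root mean square distance between centred log2 CPM values over the 6 libraries. Tll1 (0.0639), Ghrl (0.0667) and Sec31b (0.0677, all in log2 units) were nearest, where Rnf43 itself varied by 0.861 around its mean. Tll1, a secreted metalloprotease gene, had 59 to 63 counts in R783H and 10 to 19 in WT. Ghrl had no more than 18 counts in any library. With 6 libraries in 2 groups, this distance chiefly measures how alike the differences between the groups are.

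The other genes of the pathway were read from 9 lists by role, 152 genes in all, of which 123 were tested. Over these lists 45 genes were called higher and 43 lower, or 71.5% of those tested, against 64.5% of all genes. Over all tested genes 33.5% were called higher and 30.9% lower. The lists were written with earlier results of these data known. Their balance of higher and lower calls varied, as described from the cell surface inward, and differences between lists were not tested.

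Of 21 genes for Wnt ligands and their secretion 9 were tested, 2 being higher (Wls and Wnt9a) and 5 lower (Wnt5b, Wnt6, Wnt7a, Wnt8a and Wnt11) by the test, with a list median of -0.35. Wls, the carrier that takes Wnt proteins to the cell surface, rose from 22.6, 25.1 and 23.8 CPM in WT to 63.8, 62.2 and 58.5 CPM in R783H, a log2 fold change of 1.37 (SE 0.06; adjusted p = 4.25e-08, edgeR's quasi-likelihood test). Wnt11, a ligand of the non-canonical branch, fell by 0.83 on the log2 scale (SE 0.17). The ligands differed widely in counts: Wnt5b had 488 to 595 counts in a library and Wnt7a 4 to 15. The Wnt7a log2 fold change of -1.01 had adjusted p = 0.0478 (edgeR's quasi-likelihood test). That call was lost under 7 of the 14 alternatives that tested Wnt7a: upper quartile factors (adjusted p = 0.0501), library size alone (0.0648), no low-count filter (0.0658), DESeq2 (0.120), and without R783H A (0.152), WT A (0.0843) or WT C (0.194), with edgeR's quasi-likelihood test in all but the DESeq2 fit. Genes of this list called lower numbered 3 without WT A, with DESeq2 and at equal depth. Those called higher numbered 1 without R783H A, R783H B, WT B or WT C, with DESeq2 and with at least 10 counts in every library.

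Of 14 tested receptors and co-receptors, 8 passed the test as higher and 1, Fzd9, as lower (median 0.21). Among the 8, Fzd10 only just passed (adjusted p = 0.0499, edgeR's quasi-likelihood test), and its ranges overlapped. Fzd5, the Frizzled with the most counts, averaged 299 CPM in WT and 396 CPM in R783H and was called higher (log2 fold change 0.40, SE 0.05). Fzd7 rose from 49.8, 48.8 and 50.5 CPM in WT to 88.9, 85.6 and 93.5 CPM in R783H (log2 fold change 0.85, SE 0.05). Fzd4 (0.71, SE 0.14) and Fzd8 (0.55, SE 0.14) also rose, at under 8 CPM. Leaving out R783H C gave 2 receptors called lower. Of the R-spondin and Lgr genes 3 were tested and 1 rose: Lgr4, the R-spondin receptor that holds Rnf43 and Znrf3 in check, was 82.2, 73.3 and 83.2 CPM in R783H and 59.95, 62.4 and 64.5 CPM in WT (log2 fold change 0.35, SE 0.06). Adjusted p values of Fzd4, Fzd5, Fzd7, Fzd8 and Lgr4 lay between 2.06e-07 and 0.00505 by edgeR's quasi-likelihood test.

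Secreted and membrane antagonists went both ways, with 3 of 10 tested called higher (Sfrp1, Sfrp4 and Kremen1) and 5 lower (Sfrp2, Sfrp5, Dkk3, Notum and Kremen2), and a median of -0.23. Sfrp2, which binds Wnt proteins outside the cell, fell from 116, 129 and 120 counts in WT to 50, 51 and 41 in R783H, a log2 fold change of -1.78 (SE 0.14). Sfrp5 had 29, 33 and 23 counts in WT and 4, 3 and 9 in R783H, and Dkk3 21, 27 and 24 against 17, 13 and 9, so their log2 fold changes of -2.79 and -1.29 rest on few counts. Adjusted p values of these 3 genes ran from 1.14e-06 to 0.00153 by edgeR's quasi-likelihood test. Requiring 10 counts in every library left 2 antagonists called lower.

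In the cytoplasm, 12 of 22 tested Dishevelled and destruction complex genes were called higher and 4 lower (median 0.14). Axin1, the constitutive counterpart of Axin2, was among the 4 lower genes, at -0.29, with Gsk3a, Csnk1d and Usp7, and Gsk3b was among the higher ones, at 0.27. Tnks, a tankyrase that marks Axin proteins for degradation, rose by 0.77 (SE 0.07) on the log2 scale. Amer1, which recruits the complex to the membrane, rose by 0.76 (SE 0.05), and Apc, a core scaffold, by 0.57 (SE 0.10), with adjusted p values of these 3 genes from 3.98e-07 to 4.33e-04 by edgeR's quasi-likelihood test. R783H B was the lowest of its group for all 3. With the length and GC offset their changes were smaller, at 0.49, 0.51 and 0.21, and 8 genes of the list were called higher and 6 lower. Without WT A, and also without WT B, 7 were called higher.

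Of 21 tested nuclear partners and corepressors 8 were called higher and 7 lower (median 0.10). Tle1, a Groucho-type corepressor that TCF factors recruit in the absence of β-catenin, was 38.1, 38.7 and 40.2 CPM in R783H and 62.8, 58.0 and 59.0 CPM in WT (log2 fold change -0.62, SE 0.05). Cby1, a β-catenin antagonist, fell by 0.53 (SE 0.07) on the log2 scale. Sox17 rose by 1.29 (SE 0.29) from 7 to 9 counts in WT to 24 to 30 in R783H, with the 3 adjusted p values between 2.01e-06 and 0.00218 by edgeR's quasi-likelihood test. Sox17 is also a marker of primitive endoderm, whose 7 markers summed to 10.3 to 11.1 CPM in R783H and 5.18 to 7.62 CPM in WT. Gata6, Sox7 and Foxa2 were under 1 CPM in every library, and 2 of 5 tested (Gata4 and Sox17) were called higher. Gata4 was the largest part of the sum, at a mean of 6.68 CPM in R783H and 3.19 CPM in WT. Sox7, which was not tested, went the other way, with 3, 2 and 4 counts in R783H and 15, 9 and 19 in WT. The part of such cells in the result was not tested. With the length and GC offset 5 genes of the list were called higher and 9 lower.

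At the membrane, where β-catenin also links cadherins to the cytoskeleton, 2 of 7 tested genes, Cdh1 and Ctnnd2, were called higher and the others were not called. Cdh1, E-cadherin, rose from 522, 525 and 535 CPM in WT to 883, 886 and 857 CPM in R783H (log2 fold change 0.73, SE 0.04; adjusted p = 1.05e-07, edgeR's quasi-likelihood test). Ctnnd2 rose by 0.63 (SE 0.07). Without R783H B, without R783H C and with RLE size factors, 1 gene of this list was called lower, and with the length and GC offset 2 were.

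Other genes reported as Wnt targets were mostly lower: of 27 tested, 17 were called lower and 5 higher (median -0.45), the 5 being Sp8, Ascl2, Jag1, Fst and Ephb3. T, the mesoderm factor Brachyury, fell from 14.5, 12.4 and 13.6 CPM in WT to 3.43, 3.59 and 3.88 CPM in R783H (log2 fold change -1.89, SE 0.10), and Myc from 66.2, 67.2 and 62.8 CPM to 19.3, 21.2 and 19.3 CPM (-1.71, SE 0.06). Zcchc12 had 27, 26 and 29 counts in WT against 3, 1 and 4 in R783H. Adjusted p values of these 3 genes ran from 1.19e-08 to 7.48e-06 by edgeR's quasi-likelihood test. This direction was opposite to that of Axin2, Rnf43, Znrf3 and Lef1, and the difference between the lists was not tested. Several genes of the list also mark mesoderm or trophoblast: 7 mesoderm markers summed to 38.2 to 43.0 CPM in R783H and 65.5 to 68.9 CPM in WT (5 of 6 tested called lower; Mesp1 and Tbx6 under 1 CPM throughout), and 7 trophoblast markers to 77.9 to 85.7 CPM and 113 to 114 CPM (3 of 4 tested called lower; Elf5, Krt7 and Hand1 under 1 CPM). Eomes is in both marker lists, so their sums and calls share a gene. It was the largest part of the mesoderm sum, at a mean of 32.9 CPM in R783H and 46.3 CPM in WT. Krt8, also a large part of the trophoblast sum, was not called, at 36.7 and 37.0 CPM. The part of mesoderm or trophoblast cells in these values was not tested.

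Genes reported as repressed by Tcf7l1 in mouse embryonic stem cells were split, with 4 called higher and 4 lower of 10 tested (median 0.02), and Tcf7l1 itself was not called. Those higher were Lefty2, Tfcp2l1, Nr5a2 and Tbx3, and those lower Nanog, Nr0b1, Pou5f1 and Zfp42. Lefty2 rose by 0.44 (SE 0.05) on the log2 scale. Zfp42 changed by -0.36 (SE 0.04) and Nanog by -0.23 (SE 0.04), with the 3 adjusted p values from 1.13e-05 to 2.79e-04 by edgeR's quasi-likelihood test. Without R783H A, R783H C, WT A or WT B, each left out singly, 2 of the list were called higher.

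**Figure D4:**
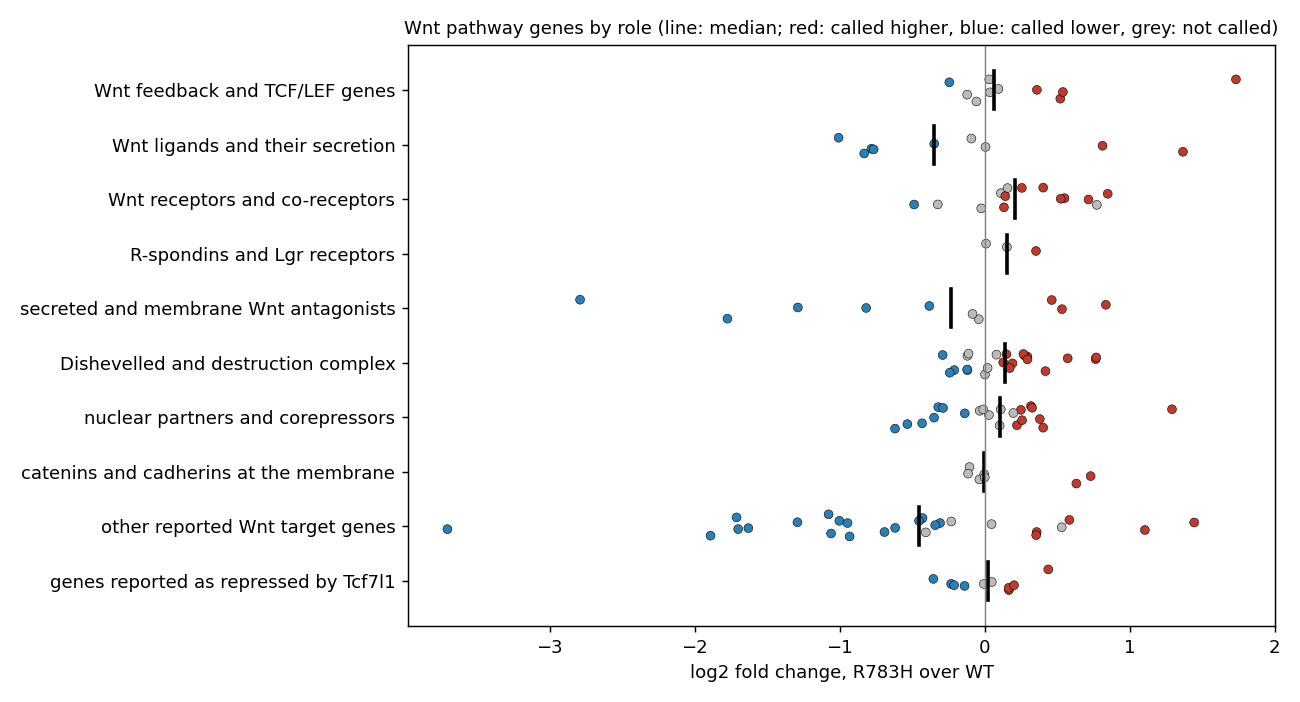
Log2 fold change (R783H over WT) of the tested genes in each list, 1 point a gene, red where called higher, blue where called lower and grey where not called, with the list median as a black line and points spread vertically for legibility. The receptor list lies mostly to the right (median 0.21) and the list of other reported targets mostly to the left (median -0.45), while the 10 feedback and TCF/LEF genes centre near 0 (median 0.06).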

How the data were processed

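RNA from 6 libraries of mouse embryonic stem cells was analysed from 1 deposited table of raw read counts per Entrez gene, with 0 columns unassigned. Per the submitters' processing notes CASAVA 1.4, HISAT2, SAMtools and the build mm10 were used; the counting tool, annotation and use of strand are not given in the sources used here. Symbols and coordinates came from RefSeq (GRCm38.p6, the mm10 assembly), which named 25275 of 27179 identifiers, and lengths, GC and shared exons from GENCODE M21.

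Genes were filtered with filterByExpr (minimum count 10, minimum total 15) and tested with edgeR 4.0.16 in R 4.3.3 (TMM, group as the single term, quasi-likelihood, Benjamini-Hochberg over 14199 genes, threshold 0.05). SE is the log2 fold change divided by the square root of F. CPM used TMM-scaled library sizes. Every count test rests on the spread between 3 libraries a group, as PCR reads lacking molecular identifiers cannot be counted as molecules. On simulated data for this comparison (14199 genes, 100 changed per fold) 89 of the 2-fold and 82 of the 1.5-fold changes were called, with 10 calls among unchanged genes. Those data held no length trend and far fewer changed genes than the 64.5% called here, so these rates may not hold for the real libraries.

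The alternatives were RLE, upper quartile and library-size scaling, 2 other filters, DESeq2 1.42.0, limma-trend (limma 3.58.1), a length and GC offset (splines with 5 df), equal depth, a replicate block and leaving out each library. Named were the 10 genes, from each list the called genes with the strongest changes (at most 3), the 3 profiles nearest to that of the called gene with the largest change, and Trim71; Ulk4, the antisense genes and every other gene named were chosen after their annotation or values were seen. The members and lists were chosen with earlier results of these data known. The planned protein comparison was not made here.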

Additional observations from a re-analysis of the deposited data

How the results depend on the processing

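Axin2, Rnf43, Znrf3, Lef1 and Tcf7 kept their direction and call under all 16 alternatives run. The number of the 10 genes called higher was 4 under every alternative except the length and GC offset, where Sp5 and Tcf7l1 were added to give 6; the number called lower ran from 1 to 3 with a library left out, 3 without R783H B, and was 1 otherwise. With the length and GC offset Sp5 turned to 0.13 and Trim71 to -0.22, both called; the cause was not tested. The sign of Nkd1 (-0.04 to 0.11), Tcf7l1 (-0.03 to 0.17) and Ctnnb1 (-0.08 to 0.02) was not fixed over the alternatives. All genes called numbered 8161 to 9882, and those of the pathway lists 33 to 48 higher and 36 to 47 lower. The replicate letters did not pair the libraries (correlation of deviations -0.07, 0.00682 and 0.0851 for A, B and C). A fit with the letter as a replicate block called 9260 genes in place of 9152 and the same 5 of the 10. Depth limits Rnf43, Nkd1 and Lef1 most, with as few as 24, 68 and 57 counts in a library.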
